A study of Mus musculus with 20 samples.

Results

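Imprinted genes are expressed from only 1 of the 2 parental copies, because a mark laid down in the egg or the sperm keeps the other copy silent. The genes described here are 36 symbols taken from a list of known mouse imprinted genes, out of 24411 genes in each expression file, and all 36 were found by their exact symbol. They include 5 genes whose imprint is known to rest on H3K27me3, a histone mark of the Polycomb repressive complex 2, rather than on DNA methylation: Sfmbt2, Gab1, Jade1, Smoc1 and Slc38a4. The other 31 members belong mostly to clusters whose germline DNA methylation is protected after fertilisation by zinc-finger proteins such as ZFP57. RNA was pooled from 10 whole embryos per library and the strain of either parent is not given, so each value below is the sum of both parental copies and says nothing of which copy was used.

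Messenger RNA was sequenced in 16 libraries from mouse embryos made by in vitro fertilisation of superovulated oocytes and cultured in KSOM medium. In the knockdown, 1-cell embryos were electroporated 3 hours after insemination with a non-targeting small interfering RNA (siControl) or with one against Pcgf5 (siPcgf5), and collected as late 2-cell embryos at 36 hours (2 and 2 libraries) or as morulae at 72 hours (2 and 2). In the knockout, 4-cell embryos at 48 hours were wild type (WT, 2 libraries), heterozygous (Hetero KO, 3) or homozygous (Homo KO, 3) for the deletion of an MT2C_Mm element, a retroviral long terminal repeat, at Pcgf5. These embryos received no siRNA, and their parental cross is not given. Pcgf5 encodes a subunit of a Polycomb repressive complex 1, the enzyme complex that attaches ubiquitin to histone H2A, a mark that works closely with H3K27me3. The comparisons ask how RNA from imprinted genes changes from the late 2-cell stage to the morula and whether it differs when Pcgf5 RNA is depleted or its repeat is deleted.

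Library totals ran from 14310634 to 55620137 expected counts, with the 4-cell libraries the shallowest (14310634 to 17871206). Pcgf5 itself stood at 316 and 811 CPM (counts scaled to a common total by TMM over all libraries) in siControl late 2-cell embryos and at 53.9 and 89.4 with siPcgf5. It stood at 246 and 166 CPM in siControl morulae and at 39.5 and 32.4 with siPcgf5, at 328 and 294 in WT 4-cell embryos, at 252 to 336 in Hetero KO and at 162 to 211 in Homo KO. Pcgf5 itself did not pass edgeR's test in any of these contrasts with control: it was 7.79-fold lower with siPcgf5 at the late 2-cell stage (adjusted p = 0.0789), 5.77-fold lower in the morula (adjusted p = 0.242) and 1.65-fold lower in Homo KO than in WT (adjusted p = 0.236). The summed level of 7 markers of the 2-cell stage was 1664 and 2063 CPM in siControl and 2513 and 3304 in siPcgf5 late 2-cell libraries, and 7.24 to 44.1 in the morulae, and that of 7 markers of the morula was 50.4 to 65.9 and 214 to 298. In siControl late 2-cell replicate 1, 8 blood and immune markers summed to 716 CPM, against 326 in replicate 2. Leaving out either of these replicates left the count of imprinted genes called with siPcgf5 at 0. Nothing states that replicates came from separate matings, so p-values measure the spread between these pools. Fewer cells of a kind and less RNA per cell cannot be told apart in pooled embryos.

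Some of the DNA behind these genes is shown first. RefSeq (GRCm38.p6) gave a start-site window of 300 bases for 30 of the 36 members, 51 windows in all. ZFP57 is known to bind the hexamer TGCCGC when its CG is methylated. This hexamer or its reverse complement GCGGCA was found in 23.5% of the members' windows (in 11 genes) and in 11.6% of 32851 windows over all genes. Among the H3K27me3-dependent members it was in 0 of 11 windows (4 genes), and among the others in 30.0% of 40 windows. Windows of a gene can overlap, as do those of Gab1 and those of Mest that begin at 30737800 and 30737803. These shares therefore count some bases more than once. The median number of CG dinucleotides per window was 15 for the members and 7 over all genes. A match is a description of the letters in these windows and not a binding site. Mest, which encodes a hydrolase-like protein expressed from the paternal copy, shows the contrast within a gene. The 250 bases before its upstream start (chr6:30733256-30733505, plus strand) hold no match, and those before an inner start (chr6:30737800-30738049, plus strand) hold 2, which are in capitals:
Mest upstream start: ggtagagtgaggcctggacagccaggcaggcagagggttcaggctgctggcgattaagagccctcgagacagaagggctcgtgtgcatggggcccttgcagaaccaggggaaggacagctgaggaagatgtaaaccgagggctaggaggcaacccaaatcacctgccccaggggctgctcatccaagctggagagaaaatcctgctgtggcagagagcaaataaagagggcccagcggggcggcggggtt
Mest inner start: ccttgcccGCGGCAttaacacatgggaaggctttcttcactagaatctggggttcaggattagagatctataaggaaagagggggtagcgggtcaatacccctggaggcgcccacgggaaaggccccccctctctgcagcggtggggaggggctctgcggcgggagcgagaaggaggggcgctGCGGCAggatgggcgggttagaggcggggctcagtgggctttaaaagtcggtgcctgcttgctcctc

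The Dlk1-Dio3 cluster on chromosome 12 holds 3 maternally expressed non-coding RNAs whose values spread widely between the 4-cell libraries, Meg3 (109540996 to 109571729), Rian (109603945 to 109661716) and Mirg (109734981 to 109749458). They lie in this order on the plus strand, and they are known to be read largely as a chain from the Meg3 promoter, with small RNAs in Rian and Mirg. The 250 bases before each annotated start are shown with every CG in capitals, and they differ in CG content. The window of Meg3 has 10 CG, that of Rian 0 and that of Mirg 10. The window before a start of Sfmbt2 (chr2:10370201-10370450, plus strand), an H3K27me3-dependent member that encodes a Polycomb-group protein, has 8:
Meg3: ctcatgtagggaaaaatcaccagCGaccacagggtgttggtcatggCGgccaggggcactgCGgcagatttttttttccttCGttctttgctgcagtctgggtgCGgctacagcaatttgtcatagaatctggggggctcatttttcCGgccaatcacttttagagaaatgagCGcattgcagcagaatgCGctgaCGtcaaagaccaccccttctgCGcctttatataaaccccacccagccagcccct
Rian: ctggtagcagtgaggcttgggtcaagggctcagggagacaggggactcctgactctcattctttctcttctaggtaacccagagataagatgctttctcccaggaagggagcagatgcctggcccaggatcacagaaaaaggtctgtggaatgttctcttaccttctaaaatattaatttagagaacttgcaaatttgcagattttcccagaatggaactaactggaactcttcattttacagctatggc
Mirg: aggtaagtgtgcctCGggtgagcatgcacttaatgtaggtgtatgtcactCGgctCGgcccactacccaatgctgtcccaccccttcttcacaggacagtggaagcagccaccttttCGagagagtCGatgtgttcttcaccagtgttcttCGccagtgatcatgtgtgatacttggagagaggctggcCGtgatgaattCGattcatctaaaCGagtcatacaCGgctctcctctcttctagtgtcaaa
Sfmbt2: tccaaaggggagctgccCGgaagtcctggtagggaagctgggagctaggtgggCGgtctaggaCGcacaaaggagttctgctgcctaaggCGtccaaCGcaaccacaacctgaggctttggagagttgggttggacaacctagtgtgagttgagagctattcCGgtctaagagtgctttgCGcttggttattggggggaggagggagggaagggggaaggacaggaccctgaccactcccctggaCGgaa

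Peg3 and Usp29 start 96 bases apart on chromosome 7 and are read away from each other. Peg3 encodes a zinc-finger protein and Usp29 a ubiquitin protease, both from the paternal copy. The bases between them (chr7:6730463-6730558, plus strand, CG in capitals) are:
Peg3 to Usp29: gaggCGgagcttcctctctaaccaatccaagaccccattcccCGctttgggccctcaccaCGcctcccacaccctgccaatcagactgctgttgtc

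Across the 16 libraries imprinted genes covered a wide range of levels. In TPM, RSEM's abundance per transcript, which corrects for gene length and so allows genes to be compared, 3 members reached at least 100 in some library, 13 at least 10, and 30 at least 1. Only 13 members stood at 1 TPM or more in every library. The 3 most abundant were Phlda2, a maternally expressed growth restrainer of the placenta, at 27.8 to 651 TPM, Snrpn, which encodes a splicing protein, at 60.4 to 330, and Mcts2, a retrogene inside H13, at 83.5 to 200. Mcts2 is a near copy of Mcts1 and lies within H13. Its expected counts and those of H13 summed to whole numbers in each group, unlike those of Usp29 and Mest. No fractional sharing of its reads is therefore seen. Whether reads of Mcts1 or H13 were placed on it cannot be told. Below 1 TPM in every library were 6 members: the growth factor Igf2 and the non-coding H19 of distal chromosome 7, Ndn, Magel2 and Peg12 of the Prader-Willi cluster, and the retrotransposon-derived Peg10. Within the Prader-Willi cluster the levels therefore ran from Snrpn at 60.4 TPM or more down to Magel2, with a highest value of 0.02. Of the 36 members, 22 overlap another protein-coding, non-coding or antisense gene. Whether the authors' counting used strand is not given in the sources used here. Reads of such pairs (Airn with Igf2r, Kcnq1ot1 with Kcnq1, Nap1l5 with Herc3, Nnat with Blcap, Snrpn with Snurf, Usp29 with Zim3, Mest with Copg2) therefore cannot be told apart. Usp29, Peg3, Snrpn, Mest, Zim3 and Copg2 had fractional expected counts. In the siControl late 2-cell group they were 3966.61 for Usp29, 203.64 for Peg3, 8004.23 for Snrpn and 2508.12 for Mest. Some of their reads were thus shared between genes in the counting.

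**Figure D1:**
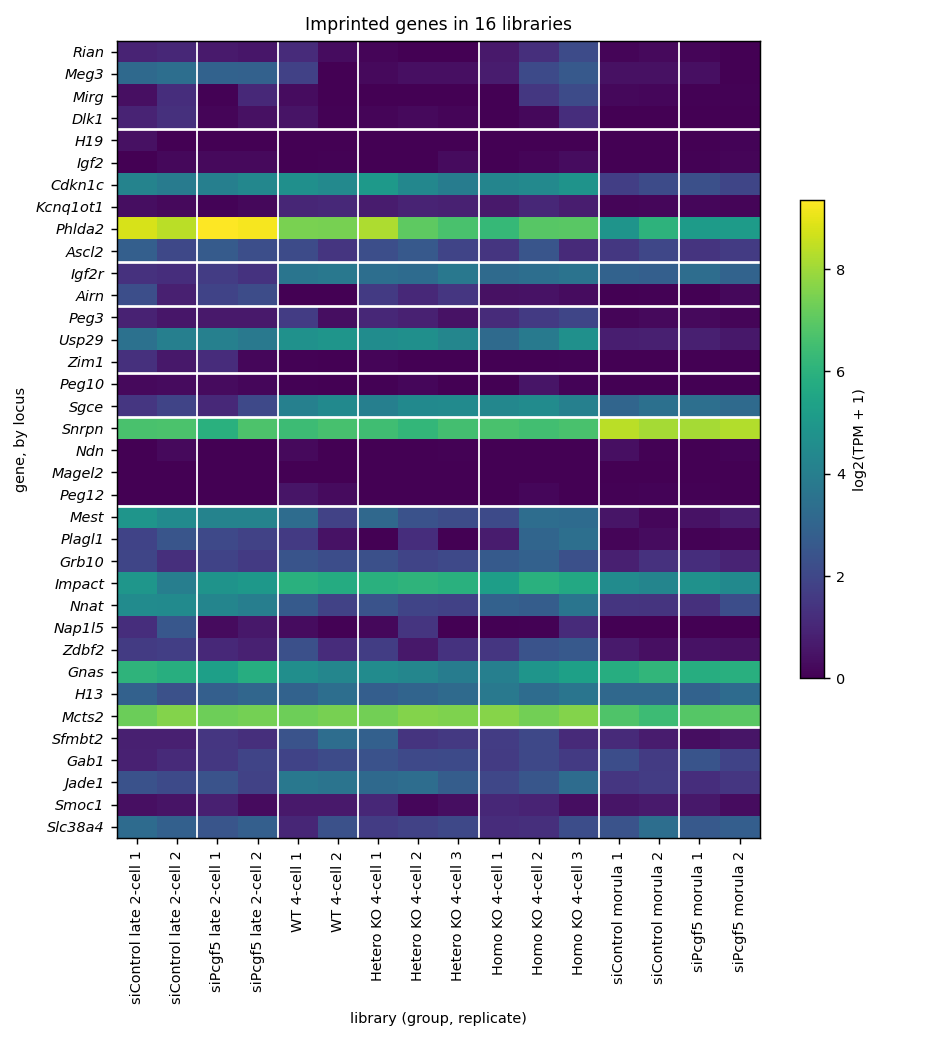
Levels of the 36 imprinted genes (rows, by locus, with the 5 H3K27me3-dependent members at the bottom) in the 16 libraries (columns, by group and replicate), as log2(TPM + 1). Phlda2, Snrpn and Mcts2 are bright throughout, while Ndn, Magel2, Peg12, H19 and Igf2 are dark in every library.

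Genes annotated to start from a short shared region did not have the same level. The ratio of Usp29 to Peg3 in TPM ran from 3.95 to 102 over the 16 libraries, with a median of 11.7, so Usp29 was the higher of the pair in each library. Usp29 overlaps Zim3, with which reads may have been shared, and Peg3 also had fractional expected counts. Gene totals do not show at which start reads began. Sgce, which encodes a sarcoglycan and starts 101 bases from Peg10, reached 21.8 TPM, while Peg10 stayed at 0.44 or below.

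Most of the imprinted genes that could be tested changed as late 2-cell embryos became morulae, and so did most of all the genes tested. In siControl embryos 19 of the 32 members tested passed an edgeR adjusted p of 0.05, 7 higher and 12 lower in the morula. Over all 16980 genes tested, 52.9% passed, 24.9% higher and 28.1% lower. The median log2 fold change of the 32 members was -1.14 and that of all genes -0.34. Other ways of scaling put the median over all genes at -0.51 (DESeq2 size factors) and -0.50 (log2(TPM + 1) with limma), and limma called 19 members, of which 16 were among the 19 of edgeR, 4 higher and 15 lower. H19, Ndn, Magel2 and Peg12 were too low to be tested. In siPcgf5 embryos, which are other libraries than the controls, 15 of 32 members passed (6 higher, 9 lower), as did 52.7% of all genes (24.5% higher, 28.2% lower). All 15 were among the 19 of siControl, with the same sign. Both contrasts came from one fit, and the same overlap over all genes is not given here. In siPcgf5, limma on log2(TPM + 1) called 15 members, 10 of them shared with edgeR, 3 higher and 12 lower. The shares of all genes that limma called are not given here.

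Of the Dlk1-Dio3 cluster, Meg3 and Dlk1 fell and the other two did not pass. Meg3 stood at 10.96 and 11.5 CPM in siControl late 2-cell embryos and at 0.748 and 0.869 CPM in siControl morulae, a log2 fold change of -3.78 (SE 0.733, edgeR adjusted p = 0.00143). Dlk1, the paternally expressed Notch-like ligand of the cluster, stood at 2.33 and 3.98 CPM in the former and at 0 and 0.0256 in the latter, 208 reads against 1, a ratio of 230 with an exact 95% counting interval of 40.9 to 9140. Neither gene overlapped between the stages in siControl. Rian (1.853 and 2.402 against 0.439 and 0.818 CPM) and Mirg (0.206 and 0.976 against 0.206 and 0.153) did not pass the test.

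Among other paternally expressed genes, Mest, Plagl1, Nap1l5, Nnat and Zdbf2 fell. Mest went from 38.4 and 31.2 CPM at the siControl late 2-cell stage to 1.29 and 0.383 in the siControl morula, a log2 fold change of -5.37 (SE 0.576, edgeR adjusted p = 2.6e-05). Plagl1, which encodes a zinc-finger transcription factor that restrains the cell cycle, went from 8.33 and 15.4 CPM to 0.619 and 1.46, a log2 fold change of -3.50 (SE 0.590, edgeR adjusted p = 0.000568). Nap1l5, a nucleosome assembly protein gene, held 207 reads in the 2 late 2-cell libraries (1.37 and 5.52 CPM) and 0 in the morulae. With the floor of 3 counts over the group, it was at least 76.4-fold lower. Nnat, a small membrane protein gene, fell by 2.58 on the log2 scale (SE 0.494), and Zdbf2, a gene imprinted through a transient maternal mark, fell by 1.34 (SE 0.423). In siPcgf5 embryos Zdbf2 missed the threshold (log2 fold change -0.55, edgeR adjusted p = 0.291).

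At the Peg3 cluster Usp29 fell by 3.10 on the log2 scale (SE 0.331), from 44.9 and 75.3 CPM to 6.94 and 7.05. Zim1, its maternally expressed neighbour, held 157 reads in the siControl late 2-cell libraries (2.88 and 1.16 CPM) and 0 in the morulae, at least 58.0-fold lower. Peg3 was at 3.36 and 2.14 CPM and then at 0.671 and 1.41, without passing the test. At distal chromosome 7, Phlda2 fell by 2.00 on the log2 scale (SE 0.344) and Cdkn1c, the gene of the cell-cycle inhibitor p57, by 1.39 (SE 0.349). Kcnq1ot1, the non-coding RNA that silences the genes around it on the paternal copy, stood at 13.5 and 9.95 CPM and then at 9.49 and 11.6. Ascl2, a trophoblast transcription factor gene, stood at 5.26 and 2.85 CPM and then at 3.41 and 5.42. In CPM the values of both overlapped between the stages, and in TPM neither did. Kcnq1ot1 stood at 0.18 and 0.27 TPM in siControl late 2-cell embryos and at 0.09 and 0.11 in siControl morulae. Ascl2 stood at 3.03 and 6.14 TPM and then at 1.87 and 3.

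Higher in the morula were Igf2r, Sgce, Snrpn, H13, Gab1, Gnas and Impact. Igf2r encodes the receptor that clears insulin-like growth factor II and is silenced on the paternal copy by Airn, a non-coding RNA that overlaps it. It rose from 7.89 and 7.81 CPM to 74.3 and 68.9, a log2 fold change of 3.20 (SE 0.274, edgeR adjusted p = 6.33e-06). Airn went from 1.60 and 0.375 CPM (80 reads) to 0 and 0.0256 (1 read), a ratio of 88.6 with an exact 95% counting interval of 15.5 to 3540. Airn was called lower in siControl and not in siPcgf5, where it stood at 0.925 and 2.35 CPM and then at 0 and 0.228 (edgeR adjusted p = 0.0735); the difference between the 2 stage changes was not called either.

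Sgce rose by a log2 fold change of 2.89 (SE 0.534), Snrpn by 2.57 (SE 0.279) and H13, a signal peptide peptidase gene, by 2.15 (SE 0.268). Gab1, which encodes a docking protein of receptor tyrosine kinases, rose by 2.53 (SE 0.454). Gnas, the stimulatory G protein locus, rose by 1.08 (SE 0.241), and Impact, which restrains the kinase GCN2, by 0.89 (SE 0.280). H13, Gnas and Impact depend on the scale, and limma on log2(TPM + 1) did not call any of the 3. H13 stood at 6.52 and 3.93 TPM in siControl late 2-cell embryos and at 7.89 and 7.96 in morulae, against 10.75 and 10.85 and then 45.9 and 49.3 CPM. In TPM, Gnas stood at 66.3 and 56.7 in siControl late 2-cell embryos and at 55.9 and 70.8 in morulae, and Impact at 29.2 and 14.8 and then at 21.9 and 18.1, so that Gnas and Impact overlapped between the stages. Impact also missed the threshold with DESeq2 size factors.

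The WT 4-cell libraries place a further stage between these, but stage and experiment cannot be told apart in such comparisons, since the 4-cell embryos were not electroporated. Against siControl late 2-cell embryos, 14 of 32 members passed in WT 4-cell embryos, 10 higher and 4 lower, where 32.6% of all genes passed (17.5% higher, 15.2% lower). Without WT replicate 2 the count was 9. From WT 4-cell to siControl morula 14 of 32 passed, 4 higher and 10 lower, against 30.2% of all genes (14.9% higher, 15.3% lower). Without a siControl morula replicate (1 or 2) that count was 8 or 9, and without WT replicate 1 it was 8. With limma on log2(TPM + 1), 17 members (12 of the 14) passed in the former, 8 higher and 9 lower, and 15 (11 of the 14) in the latter, 2 higher and 13 lower. The share of all genes that limma called is not given here, so its split of directions cannot be read as particular to the members.

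Several members were highest at the 4-cell stage. Kcnq1ot1 stood at 64.4 and 82.1 CPM in WT 4-cell embryos, 2.64 (SE 0.400) above the siControl late 2-cell libraries and 2.79 (SE 0.403) above the siControl morulae in log2 fold change. Usp29 (138 and 188 CPM), Jade1 (49.0 and 53.2), Sfmbt2 (9.72 and 29.9) and Impact (144 and 152) were likewise called higher than the earlier stage and called lower in the morula. Gnas did the reverse, with 22.8 and 22.9 CPM in WT against 54.9 and 50.3 before and 97.9 and 124 after. Igf2r and Sgce had reached 74.0 and 96.4 CPM and 17.7 and 27.8 CPM in the 4-cell embryos, and edgeR called neither between the 4-cell stage and the morula, where limma on log2(TPM + 1) called both lower. Snrpn did not pass from the late 2-cell to the 4-cell stage (111 and 156 CPM in WT) and was called higher in the morula at 751 and 609 CPM.

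**Figure D2:**
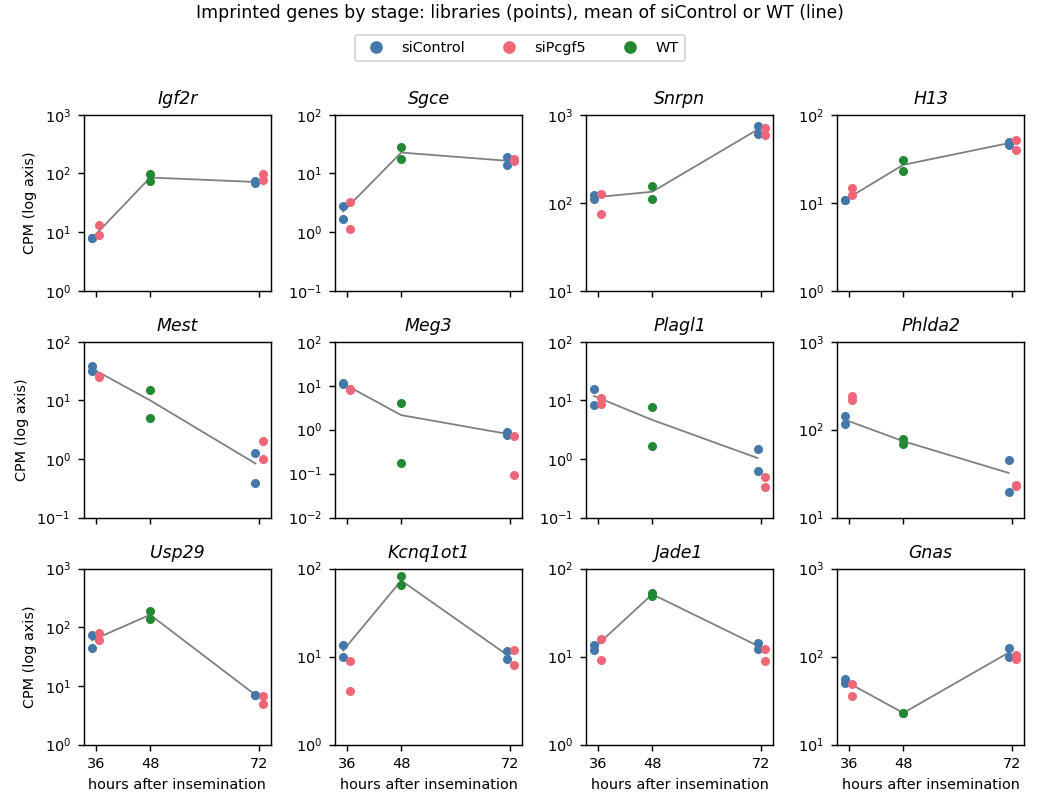
Level of 12 imprinted genes (CPM, log axis) at 36, 48 and 72 hours after insemination; points are libraries of siControl, siPcgf5 and WT embryos and the line joins the means of siControl or WT. Igf2r and Sgce are already high at 48 hours, Snrpn at 72 hours, Mest, Meg3 and Plagl1 decline, Usp29, Kcnq1ot1 and Jade1 peak at 48 hours and Gnas is lowest there.

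No imprinted gene passed the test between siPcgf5 and siControl at either stage, in a design in which Pcgf5 did not pass either. At the late 2-cell stage edgeR called 0 of 32 members between siPcgf5 and siControl, as against 0.0118% of all genes. At an unadjusted p under 0.05 there were 4 members, 2 higher and 2 lower, and this share of all genes was 5.58%. DESeq2 and limma called 0 members. The median log2 fold change was -0.07 for the members and -0.01 for all genes. Replicates did not overlap for 18 members (8 higher, 10 lower), and for 31.1% of all genes.

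The 3 members with the smallest p at the late 2-cell stage are given as values. Gab1 stood at 2.31 and 3.72 CPM with siControl and at 5.96 and 8.61 with siPcgf5, a log2 fold change of 1.3 (SE 0.441, edgeR adjusted p = 0.784). Zdbf2 stood at 15.97 and 19.4 CPM with siControl and at 9.57 and 6.59 with siPcgf5, -1.12 (SE 0.421, edgeR adjusted p = 0.834). Phlda2 stood at 144 and 115 CPM with siControl and at 242 and 216 with siPcgf5, 0.84 (SE 0.333, edgeR adjusted p = 0.871). The groups did not overlap in any of the 3, yet none passed once all genes were counted. The summed 2-cell markers, given above, were also higher in both siPcgf5 libraries than in both siControl libraries, and their part in these values was not tested. The other member at an unadjusted p under 0.05 was Nap1l5 (1.37 and 5.52 against 0.255 and 0.563 CPM).

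In the morula edgeR called 0 of 32 members between siPcgf5 and siControl, and 0% of all genes. No member had an unadjusted p under 0.05, where 4.22% of all genes did, and DESeq2 and limma called 0 members. Replicates did not overlap for 11 members (3 higher, 8 lower), and for 31.4% of all genes. The smallest p belonged to Plagl1, which stood at 0.619 and 1.46 CPM with siControl and at 0.329 and 0.503 with siPcgf5 (log2 fold change -1.31, SE 0.592, edgeR adjusted p = 1). Its difference was -0.57 without siControl morula replicate 2. Sfmbt2 and Mest came next. Mest stood at 1.29 and 0.383 CPM with siControl and at 1.02 and 2.03 with siPcgf5, and the groups overlapped (0.87, SE 0.524).

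The difference between the siPcgf5 effects at the 2 stages was tested directly, and 0 of 32 members and 0% of all genes passed with edgeR. DESeq2 and limma called 0 members too, and 2 members had an unadjusted p under 0.05 against 4.96% of all genes. These were Sfmbt2, with a difference of -2.15 on the log2 scale (SE 0.760, edgeR adjusted p = 0.966), and Phlda2, with -1.33 (SE 0.472, edgeR adjusted p = 0.966). Phlda2 in the morula stood at 19.4 and 45.0 CPM with siControl and at 22.8 and 23.7 with siPcgf5, so that the groups overlapped there. Without siControl morula replicate 2 the Phlda2 difference was -0.60. Dlk1 had the next smallest p. It was lower with siPcgf5 at the late 2-cell stage (2.33 and 3.98 against 0.255 and 0.915 CPM) without passing, and in the morula it held 1 read in the siControl group and 5 with siPcgf5, too few to compare.

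**Figure D3:**
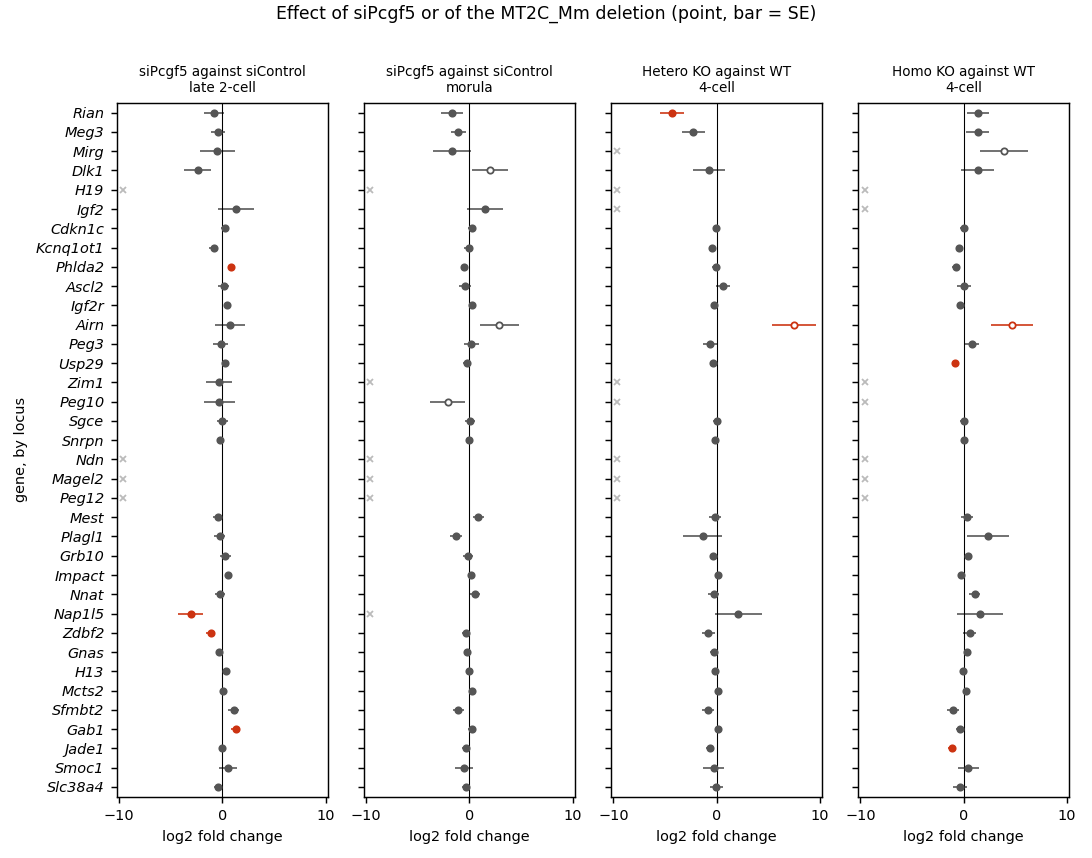
Log2 fold change (point) with its SE (bar) of each imprinted gene in 4 comparisons; red points have an unadjusted p under 0.05, open points have 3 or fewer reads in a group, so that their position depends on the fit's prior count, and crosses mark genes that were not tested or had 3 or fewer reads in both groups. Points lie on both sides of 0 in every panel, and no gene passed the adjusted threshold.

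The 5 H3K27me3-dependent members were read on their own because the complexes that ubiquitinate H2A and methylate H3K27 act together. Of the 5, 0 passed in any of the 6 comparisons that involved siPcgf5 or the deletion, by edgeR, DESeq2 or limma. Of the unadjusted p-values, 1 of 5 was under 0.05 at the late 2-cell stage (Gab1), 0 in the morula, 1 in the difference between them (Sfmbt2) and 1 in Homo KO against WT (Jade1). The shares of all genes were 5.58%, 4.22%, 4.96% and 12.4% in the same order. Their median log2 fold change was 0.57 at the late 2-cell stage and -0.34 in the morula, where that of all genes was -0.01 in both.

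Sfmbt2, whose paternal copy is needed in the placenta, gave opposite values at the 2 knockdown stages. In late 2-cell embryos it stood at 1.53 and 2.97 CPM with siControl and at 4.43 and 4.99 with siPcgf5, a log2 fold change of 1.09 (SE 0.539, edgeR adjusted p = 0.907). In morulae it stood at 6.04 and 4.80 CPM with siControl and at 2.30 and 2.90 with siPcgf5, -1.07 (SE 0.536, edgeR adjusted p = 1). The groups did not overlap at either stage and the difference between them, given above, did not pass. In the 4-cell libraries it stood at 9.72 and 29.9 CPM in WT embryos, 18.99, 8.04 and 6.22 in Hetero KO embryos, and 8.45, 13.1 and 6.95 in Homo KO embryos. Without WT replicate 2, its log2 fold change in Homo KO against WT went from -1.06 to -0.06.

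Jade1, which encodes a chromatin-binding component of an acetyltransferase complex, had the smallest p of the members in Homo KO against WT. It stood at 49.0 and 53.2 CPM in WT embryos, 33.5, 37.6 and 26.8 in Hetero KO embryos, and 13.7, 20.1 and 37.0 in Homo KO embryos. All 6 deletion libraries lay below both WT libraries. The log2 fold change was -1.11 (SE 0.368, edgeR adjusted p = 0.289) in Homo KO and -0.65 (SE 0.369, edgeR adjusted p = 0.945) in Hetero KO. With siRNA, Jade1 stood at 13.4 and 11.8 CPM (siControl) and 15.9 and 9.12 (siPcgf5) in late 2-cell embryos, and at 12.3 and 14.3 and 8.90 and 12.2 in morulae.

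Gab1 in the morula stood at 22.0 and 12.6 CPM with siControl and at 25.5 and 16.01 with siPcgf5. In 4-cell embryos it stood at 9.46 and 14.4 CPM in WT embryos, 15.3, 11.6 and 13.8 in Hetero KO embryos, and 8.45, 12.0 and 7.65 in Homo KO embryos, and all of these groups overlapped. Slc38a4, an amino acid transporter gene active in the placenta, stood at 19.8 and 15.99 CPM (siControl) and 11.9 and 15.2 (siPcgf5) in late 2-cell embryos. Its morula values were 20.3 and 44.3 against 23.6 and 28.5 CPM. At the 4-cell stage it stood at 2.78 and 13.5 CPM in WT embryos, 6.40, 7.54 and 10.3 in Hetero KO embryos, and 4.06, 4.29 and 10.8 in Homo KO embryos, so that the WT replicates spanned nearly the whole range. Smoc1, which encodes a secreted calcium-binding protein, was the lowest of the 5, at 0.618 and 0.863 CPM (siControl) and 1.72 and 0.469 (siPcgf5) in late 2-cell embryos. It stood at 1.91 and 2.53 against 2.14 and 1.01 CPM in morulae. In 4-cell embryos it stood at 1.39 and 1.59 CPM in WT embryos, 2.67, 0.281 and 0.752 in Hetero KO embryos, and 2.995, 2.42 and 0.695 in Homo KO embryos. Its groups overlapped in every comparison with siPcgf5 or the deletion.

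**Figure D4:**
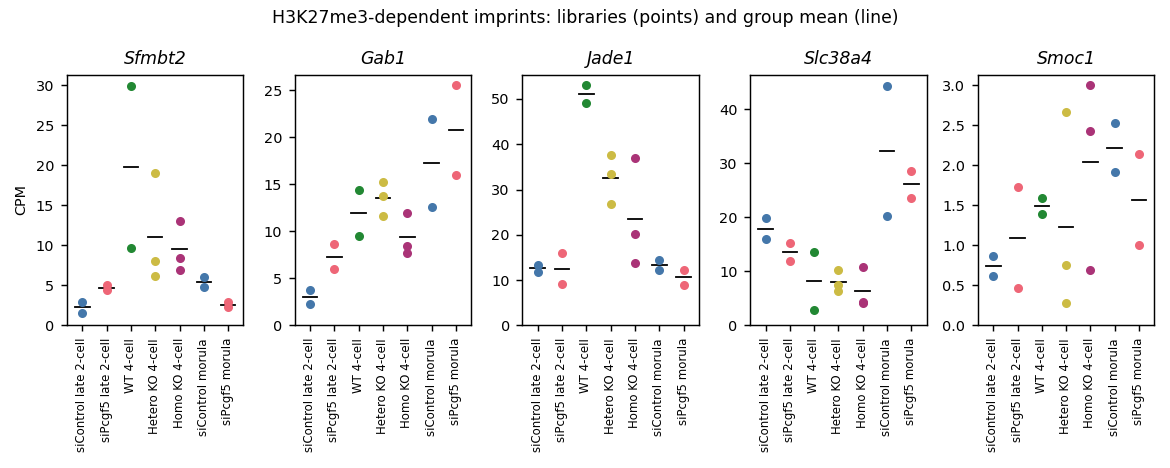
Level (CPM) of the 5 H3K27me3-dependent members in each library (points, by group) with the group mean (line). Sfmbt2 is higher with siPcgf5 than with siControl at the late 2-cell stage and lower in the morula, and Jade1 is highest in the 2 WT 4-cell libraries.

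Deletion of the MT2C_Mm element gave no imprinted gene that passed edgeR's test. In Homo KO against WT, 0 of 29 members and 0% of all genes passed. At an unadjusted p under 0.05 there were 3 members (1 higher, 2 lower) and 12.4% of all genes. In Hetero KO against WT, 0 of 29 members and 0% of all genes passed, with 2 members and 4.76% of all genes at an unadjusted p under 0.05. DESeq2 and limma called 0 members in both. Libraries did not overlap for 4 of 29 members in Homo KO against WT (30.4% of all genes) and for 7 in Hetero KO against WT (20.6%). The median log2 fold change was 0.20 in Homo KO and -0.25 in Hetero KO, where that of all genes was 0.02 and 0.00. In Hetero KO 7 of 29 members lay above 0, where 50.0% of all genes did. Igf2, Zim1 and Peg10 were too low to be tested here, as were H19, Ndn, Magel2 and Peg12.

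Besides Jade1, Usp29 and Airn had the smallest p in Homo KO against WT. Usp29 stood at 138 and 188 CPM in WT and at 53.0, 80.6 and 143 in Homo KO, with an overlap through replicate 3 (log2 fold change -0.82, SE 0.335, edgeR adjusted p = 0.366). Airn held 0 reads in both WT libraries. It stood at 1.73, 1.01 and 1.504 CPM in Hetero KO (66 reads), at least 15.2-fold higher than the WT floor, and at 0.333, 0.0622 and 0.190 in Homo KO (9 reads), at least 2.1-fold higher. Neither difference passed (edgeR adjusted p = 0.945 and 0.387). Igf2r, which Airn overlaps, stood at 74.0 and 96.4 CPM in WT, 60.4 to 94.8 in Hetero KO and 63.0 to 74.5 in Homo KO.

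Between Homo KO and Hetero KO, Rian and Meg3 of the Dlk1-Dio3 cluster were among the members of smallest p. With edgeR 0 of 29 members and 0% of all genes passed in this comparison, and 7 members, all higher in Homo KO, had an unadjusted p under 0.05 against 8.22% of all genes. DESeq2 called 2 of them, Rian (log2 fold change 5.83, DESeq2 adjusted p = 0.000781) and Meg3 (3.64, DESeq2 adjusted p = 0.0438), and limma called 0. Libraries of the genotypes did not overlap for 6 members and for 14.7% of all genes. Rian stood at 0.1999, 0 and 0.0684 CPM in Hetero KO and at 1.66, 3.85 and 9.17 in Homo KO (log2 fold change 5.71, SE 1.16, edgeR adjusted p = 0.406). Meg3 stood at 0.466, 0.394 and 0.479 CPM in Hetero KO and at 1.13, 5.66 and 9.80 in Homo KO (3.62, SE 1.08, edgeR adjusted p = 0.47). Neither gene overlapped between the 2 genotypes, and Homo KO replicates 2 and 3 were the highest for both.

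The 2 WT libraries lay far apart in both genes, and for Meg3 WT replicate 2 lay below all 3 Hetero KO libraries. Rian stood at 3.09 and 0.706 CPM and Meg3 at 4.10 and 0.177 CPM in WT replicates 1 and 2. Rian had the smallest p in Hetero KO against WT (log2 fold change -4.34, SE 1.17, edgeR adjusted p = 0.945). For Meg3 the value in Hetero KO against WT was -2.24, and it turned to 1.29 without WT replicate 1. Mirg held 0 reads in the 3 Hetero KO libraries and in Homo KO replicate 1, and stood at 1.68 and 2.91 CPM in Homo KO replicates 2 and 3. Over the group it was at least 24.6-fold higher in Homo KO than the Hetero KO floor, a difference that rests on these 2 libraries. The other members at an unadjusted p under 0.05, named after their values were seen, were Nnat, Zdbf2, Peg3 and Grb10, an adaptor gene that restrains growth signals.

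The same 4-cell libraries were high in several of these genes. Plagl1 stood at 7.63 and 1.65 CPM in WT embryos, 0, 5.34 and 0 in Hetero KO embryos, and 2.80, 30.3 and 38.5 in Homo KO embryos. Zdbf2 stood at 35.9 and 14.6 CPM in WT embryos, 21.7, 5.12 and 17.3 in Hetero KO embryos, and 19.2, 43.0 and 49.8 in Homo KO embryos. Peg3 stood at 10.5 and 1.65, at 5.26, 4.22 and 2.12 and at 6.66, 10.6 and 14.7 CPM in the same order. For Plagl1 and Zdbf2, Homo KO replicates 2 and 3 were the highest libraries, while for Peg3 in TPM WT replicate 1 (2.20) lay above Homo KO replicate 2 (2.01). In all 3 genes WT replicate 1 lay above WT replicate 2.

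Markers of other stages and cells also differed between these libraries. The 7 markers of the 2-cell stage summed to 318 and 32.9 CPM in WT, 174, 128 and 90.9 in the Hetero KO libraries, and 372, 357 and 438 in those of Homo KO. The 7 oocyte markers summed to 355 to 378 CPM in WT, 280 to 635 in Hetero KO and 486 to 529 in Homo KO. The 10 cumulus and granulosa markers summed to 1.82 to 3.28, 2.48 to 3.35 and 6.39 to 16.6 CPM, with 3 to 5 of the 10 above 0 and Amh at 0 in every 4-cell library. Tnfaip6 alone made up most of this sum in Homo KO replicates 1 and 3 (5.72 and 13.2 CPM, and 2.30 in replicate 2). In replicate 2, Ptx3 (2.55 CPM) and Star (2.36 CPM) were as high as Tnfaip6. Tnfaip6 stood at 17.3 to 37.2 CPM in the late 2-cell libraries. Whether cumulus cells had a part in the sum was not tested. The 8 blood and immune markers summed to 21.5 to 68.1, 25.5 to 54.5 and 83.1 to 96.9 CPM. Most of this was Hba-a2 (61.7, 75.6 and 83.3 CPM in Homo KO), while the globin genes Hbb-bs and Hbb-bt were at 0 in every library. Hba-a2 stood at 247 to 347 CPM in the late 2-cell libraries, and whether blood cells had a part in the sum was not tested. Xist, which is read from an inactive X chromosome, stood at 6.03 and 5.56 CPM in Homo KO replicates 2 and 3 and at 11.6 to 103 in the other 6 libraries, and the share of female embryos per pool is not given. The part of these differences in the imprinted genes' values was not tested.

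**Figure D5:**
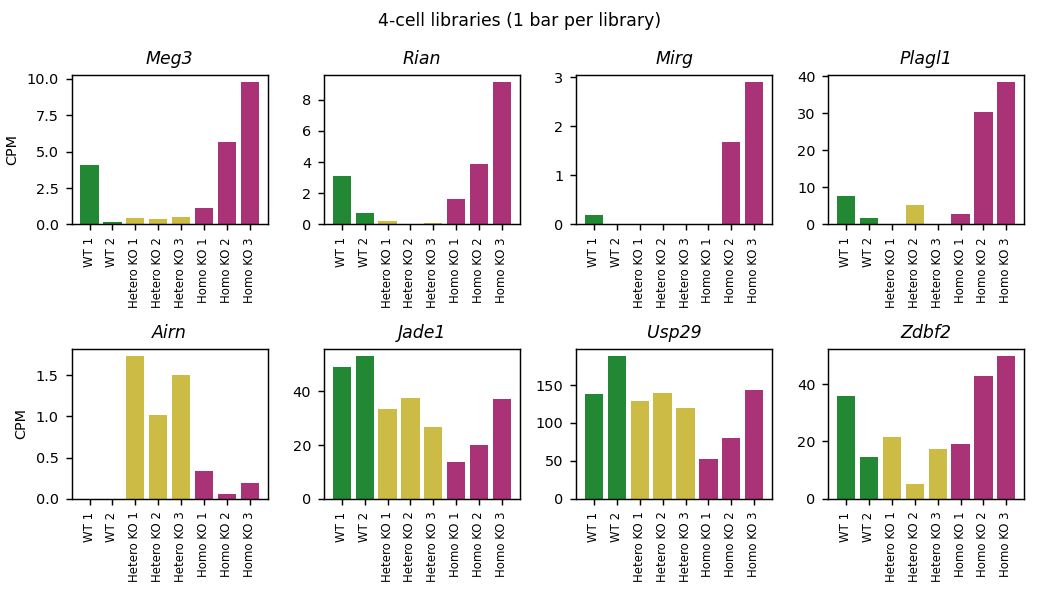
Level (CPM) of 8 imprinted genes in the 8 4-cell libraries, 1 bar per library (WT green, Hetero KO yellow, Homo KO purple). Meg3, Rian, Mirg, Plagl1 and Zdbf2 are highest in Homo KO replicates 2 and 3, Airn is at 0 in both WT libraries, and Jade1 is highest in WT.

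Regulators of imprints were measured beside the members as a list of 22 genes. With siPcgf5 or the deletion edgeR called 0 of the 22 in all 6 comparisons, and 0 to 3 of them had an unadjusted p under 0.05, as did 4.22% to 12.4% of all genes. From siControl late 2-cell embryos to siControl morulae 9 rose and 8 fell, where 24.9% of all genes rose and 28.1% fell. Zfp57 fell by 3.18 on the log2 scale, from 154 and 83.8 CPM to 10.3 and 15.7 (SE 0.347). Trim28, the corepressor that ZFP57 recruits, rose by 2.84 (SE 0.231), from 29.2 and 34.4 CPM to 254 and 199. Zfp42, which encodes REX1, rose by 2.36 (SE 0.253), and Eed, a subunit of the H3K27me3 writer, by 2.08 (SE 0.221). The DNA-binding factor and its corepressor therefore moved in opposite directions between these stages. At the 4-cell stage the smallest p among the regulators in Homo KO against WT was that of Arid4a, which encodes a chromatin-binding protein. It stood at 113 and 80.9 CPM in WT and at 143, 251 and 220 in Homo KO (log2 fold change 1.08, SE 0.296, edgeR adjusted p = 0.243).

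A second list held 40 further imprinted genes, many of them from the edges of the same clusters. With siPcgf5 or the deletion edgeR called 0 of those tested (36 in the knockdown and 31 at the 4-cell stage), and 1 to 3 in each comparison had an unadjusted p under 0.05, again against 4.22% to 12.4% of all genes. From siControl late 2-cell embryos to siControl morulae 6 of 36 rose and 10 fell (24.9% and 28.1% of all genes), with a median log2 fold change of -0.57 against -0.34 for all genes. Commd1, a copper homeostasis gene, rose from 9.29 and 9.65 CPM to 84.7 and 89.2 (log2 fold change 3.21, SE 0.241). Bbx, which encodes an HMG-box protein, rose by 2.01 (SE 0.311). Asb4, a gene near Peg10 and Sgce, fell from 11.5 and 7.55 CPM to 0.800 and 0.409 (-3.96, SE 0.658). Th, the tyrosine hydroxylase gene, stood at 25.4 and 12.5 CPM in siControl late 2-cell embryos and at 0 in all 4 morula libraries.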

How the data were processed

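Expression was measured in 16 libraries (SMART-Seq v4 PLUS kit, per the labels' protocols), and 4 H2AK119ub1 chromatin samples were not analysed here. Per the file headers, the authors deposited RSEM gene tables, whose expected count is a raw estimate of reads per gene. Their TPM and FPKM columns are RSEM's own, per the file headers, and FPKM were not used. The submitters' processing notes name STAR 2.7.10, RSEM 1.3.3, Bowtie2 2.4.5, deepTools and mm10. RSEM shares reads that match several genes between them, which makes near copies and overlapping genes uncertain. Strand use in counting and read filters are not given in the sources used here.

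After rounding of the expected counts, edgeR 4.0.16 ran under R 4.3.3 (robust quasi-likelihood test, two-sided, TMM, filterByExpr with a minimum count of 10). Benjamini-Hochberg adjustment covered every gene tested, with a threshold of 0.05. The 8 knockdown libraries (16980 genes tested), the 8 4-cell libraries (13766) and, for comparisons between experiments, all 16 (16669) were fitted apart, with 1 coefficient per group. SE are those of the log2 fold change implied by the F statistic. CPM use TMM-scaled library sizes over all 16 libraries. The scripts were tested on simulated data with known changes.

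Alternatives were DESeq2 1.42.0 (its size factors within edgeR, and its Wald test), all genes kept whatever their counts, limma 3.58.1 on log2(TPM + 1), fits of the compared groups alone, a replicate block and leaving out each library. A group with 0 reads was set to a floor of 3 counts over the group. Floors and intervals cover counting error only, since PCR reads without molecular identifiers are not independent molecules.

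The members, the lists and the comparisons were chosen with earlier results of these data known. The 5 H3K27me3-dependent members were given with the value in every library. Named with values for the comparison concerned were the 3 members of smallest p in each siPcgf5 or deletion comparison. So were the 8 called members with the largest change between the siControl stages. Of each other list at most the 4 genes of smallest p per comparison were named. Promoter windows came from RefSeq (GRCm38.p6), in which 23194 of the 24411 symbols matched.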

Additional observations from a re-analysis of the deposited data

How the results depend on the processing

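Members called with siPcgf5 or the deletion stayed at 0 in 5 of the 6 comparisons under every alternative run, and were 2 in Homo KO against Hetero KO with the DESeq2 Wald test (0 with edgeR). Leaving out 1 library in turn gave 0 to 0 members in these 6 comparisons, 17 to 18 (19 with all libraries) for the siControl stages, 13 to 15 (15) for the siPcgf5 stages, 9 to 13 (14) for WT 4-cell against siControl late 2-cell and 8 to 11 (14) for siControl morula against WT 4-cell. A library left alone in its group is assumed to vary like the other groups. Deviations of same-numbered replicates from their group means correlated at -0.0383 to 0.00647 in the knockdown and -0.116 to 0.149 at the 4-cell stage. Whether such replicates were handled together cannot be told from this. With the replicate number as a block the counts were 0 in the 6 comparisons and 19, 15, 13 and 12 in the 4 stage comparisons, in the order above. The difference between the siPcgf5 effects uses all knockdown groups, so a fit of only the groups compared was not run for it.

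Over all genes the number called depended on the tool. The DESeq2 Wald test called 75 (edgeR 2) with siPcgf5 at the late 2-cell stage, 29 (0) in the morula, 33 (0) for the difference, 342 (0) in Homo KO and 13 (0) in Hetero KO against WT, and 130 (0) between them. Without the filter on low counts edgeR called 28, 26, 33, 59, 1 and 0 in the same order. Leaving out 1 library gave 63 at the late 2-cell stage without siControl replicate 2, 6 without siControl replicate 1 and 0 without either siPcgf5 replicate. In the morula it gave 6 without siPcgf5 replicate 1 (5 for the difference) and 2 without siControl replicate 1. Without WT replicate 1 it gave 30 in Homo KO and 1 in Hetero KO against WT, and without Homo KO replicate 1 it gave 4 between the genotypes; the other omissions gave 0. WT 4-cell against siControl late 2-cell (5442 called) gave 3208 without WT replicate 2 and 3430 without siControl replicate 1. The siControl morula against WT (5042) gave 3105 and 3308 without morula replicates 1 and 2 and 3351 without WT replicate 1. At the late 2-cell stage limma called 18, DESeq2 size factors 5, and the block or the groups compared alone 1. The cause was not tested.

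Signs turned only for members that did not pass, in log2 fold change. In siPcgf5 late 2-cell embryos Jade1 went from a value that rounds to 0 to -0.03 (DESeq2 size factors and Wald test), -0.11 (limma) and 0 (replicate block, and only the groups compared). With 1 library left out, Jade1 ran from -0.44 to 0.34 and Smoc1 from -0.62 to 1.23 there, and in the morula Gab1 from -0.11 to 0.7 and Slc38a4 from -0.78 to 0.35. For the difference between stages, Jade1 ran from -0.66 to 0.12, Smoc1 from -1.72 to 0.14 and Slc38a4 from -0.4 to 0.74. In Homo KO against WT Slc38a4 ran from -1.1 to 1.18. In Hetero KO against WT Meg3 ran from -3.2 to 1.29, Sfmbt2 from -1.48 to 0.17, Gab1 from -0.1 to 0.5, Smoc1 from -1.52 to 0.2 and Slc38a4 from -0.76 to 1.52, the last also at 0.18 with limma. In Homo KO against Hetero KO Sfmbt2 ran from -0.52 to 0.41. Depth limits the lowest members, since 3 counts over a group equal 0.0385 to 0.0913 CPM.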

Other observations

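Xist, the non-coding RNA of X inactivation, is expressed from the paternal X in early female mouse embryos and is on the second list of imprinted genes. It stood at 4.30 and 3.90 CPM in siControl late 2-cell embryos and at 24.6 and 48.3 in siControl morulae, and at 0.925 and 3.14 and then at 24.5 and 39.8 with siPcgf5. In 4-cell embryos it stood at 11.6 and 63.5 CPM in WT, at 19.6, 39.8 and 103 in Hetero KO and at 40.1, 6.03 and 5.56 in Homo KO. The sum of 8 Y-linked genes in the same 4-cell libraries was 100 and 140 CPM, 67.7, 133 and 47.6 CPM, and 100 and 250 and 189 CPM. The share of female embryos in each pool is not given, and its part in the Xist values was not tested. The 2 libraries with the lowest Xist, Homo KO replicates 2 and 3, had the highest Y-linked sums and were also those in which Meg3, Rian, Mirg and Plagl1 were highest among the 4-cell libraries.

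Mcts1, the X-linked parent gene of Mcts2, rose from 68.0 and 60.7 CPM in siControl late 2-cell embryos to 245 and 291 in siControl morulae, while Mcts2 stood at 54.8 and 75.1 and then at 83.4 and 63.8. At the 4-cell stage Mcts1 ran from 63.6 to 224 CPM between libraries and Mcts2 from 67.6 to 99.7.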
